A study of Drosophila melanogaster with 6 samples.

Results

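The c-Jun N-terminal kinase (JNK) pathway genes bsk, hep, puc, kay, Jra, egr, grnd, Mmp1 and Ets21C were followed in sorted intestinal progenitor cells of Drosophila melanogaster. They were picked by symbol, with earlier results of these data known, and all 9 have a row among the 13189 genes with at least 1 unique molecular identifier (UMI) in the libraries. The study compared 3 wild-type control libraries with 3 libraries that carry the label Pex5-depleted. Pex5 is the receptor that brings enzymes into peroxisomes. Each library was made from 200 dissected guts, from which about 40000 GFP-positive cells were sorted after 1 h in elastase at 27 °C. The gate was set with flies that express GFP under escargot (esg), a driver active in stem cells and their undifferentiated daughters. How Pex5 was depleted, and the sex and age of the flies, are not given in the sources used here.

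JNK signalling is a stress-activated kinase cascade. The tumour necrosis factor ligand Eiger (egr) binds the receptor Grindelwald (grnd), a chain of kinases ends in the JNK kinase Hemipterous (hep) and the JNK Basket (bsk), and Basket phosphorylates the AP-1 transcription factors Jun (Jra) and Fos (kay). Among AP-1 targets are puc, which encodes a phosphatase that switches Basket off again, the matrix metalloprotease gene Mmp1 and the ETS factor gene Ets21C. In the adult fly midgut the pathway is known for driving stem cell division after infection, damage and ageing. The measurements are of transcripts only, and the phosphorylation that sets the activity of the kinases was not measured.

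The libraries held 2573882 to 4793433 UMIs in 8890 to 10349 detected genes, and the 9 genes together took 330 to 450.3 CPM, which are UMIs per 1000000 UMIs of the library, before scaling for composition. Replicates are called biological in the labels. The Pex5 transcript itself had 8, 6 and 14 UMIs in the controls, against 2, 21 and 41 in the group labelled Pex5-depleted, so its counts do not follow the label. Every direction given here rests on that label. The sorted driver gene esg stood at 42.5 ± 13.0 CPM in the controls, against 55.4 ± 9.62 CPM in the other group (n = 3 each, SD), and all 15 progenitor markers listed were detected above the filter. The 15 summed to 867 to 1119 CPM in the controls, against 1014 to 1285 CPM in the other group, and 0 passed. At an unadjusted p under 0.05 with edgeR stood 2 higher and 0 lower, and 13.2% of all tested genes. The smallest p was that of mira (log2 fold change 1.67, edgeR, adjusted p = 0.0788). Heat shock transcripts took 1.77% to 3.50% of UMIs in the controls, against 3.89% to 4.45% in the other group, without overlap. Enteroendocrine markers summed to 1059 to 3117 CPM in the controls, against 554 to 1001 CPM in the other group (15 of 15 in the table, 3 of 10 tested lower). All 10 fold changes were negative. Orcokinin had the highest control mean, 1278 ± 979 against 270 ± 83.9 CPM (SD, n = 3 each), with overlapping groups. Enterocyte markers summed to 307 to 489 and 671 to 715 CPM (12 of 12 in the table, 2 of 7 tested higher). The 2 were Jon25Biii (means 19.5 and 193 CPM) and Amy-p (71.1 and 170 CPM). The other 5 ran from -0.16 for mex1 to 0.74 for Jon65Aiii on the log2 scale, none past the threshold. Over all tested genes 0.816% were called lower and 0.833% higher. Of 8 haemocyte markers 4 were in the table and summed to 14.7 to 20.5 CPM in the controls, against 11.3 to 18.1 CPM in the other group. Most of this was the scavenger receptor gene crq, with 31 to 79 UMIs a library, while the haemocyte-defining Hml had 1 UMI in each of 2 libraries. All 13 visceral muscle markers were in the table and summed to 74.9 to 76.1 CPM in the controls, against 46.4 to 61.9 CPM in the other group, without overlap. Most of this was the tropomyosin gene Tm1, with 93 to 247 UMIs a library (log2 fold change -0.67; edgeR, adjusted p = 0.225), while the muscle myosin gene Mhc had no more than 4 UMIs in any library. The part of these differences in the values below was not tested.

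None of the JNK pathway genes passed the test between the groups. Of the 9, 8 had enough UMIs to be tested, and 0 of those 8 were higher or lower at an adjusted p under 0.05 with edgeR's quasi-likelihood test, adjusted by Benjamini-Hochberg over all 5639 tested genes. Over all tested genes 1.65% passed, 0.833% higher and 0.816% lower. DESeq2 and limma-voom called 0 of the 8 as well, where they called 3.69% and 1.49% of all genes. The other edgeR settings also called 0 of them, against 1.65% of all genes with RLE factors, 1.77% with no composition factor, 1.49% without a count filter, 1.63% with a filter of 10 UMIs in 3 libraries and 1.03% with a replicate block. Without control replicates 1, 2 and 3 in turn the share of all genes called was 0.283%, 1.32% and 0.735%, and without replicates 1, 2 and 3 labelled Pex5-depleted it was 0.563%, 0.538% and 0.46%, again with 0 of the 8. At an unadjusted p under 0.05 stood 0 of the 8 and 13.2% of all genes, and groups that did not overlap were seen in 0 of the 8 and 19.2% of all genes. Against a background of 1.65%, few calls would fall among any 8 genes, so the count of 0 says nothing particular about these. Of the 8 fold changes 4 were positive and 4 negative, and their median was -0.06 on the log2 scale where the median of all tested genes was 0.03.

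**Figure D1:**
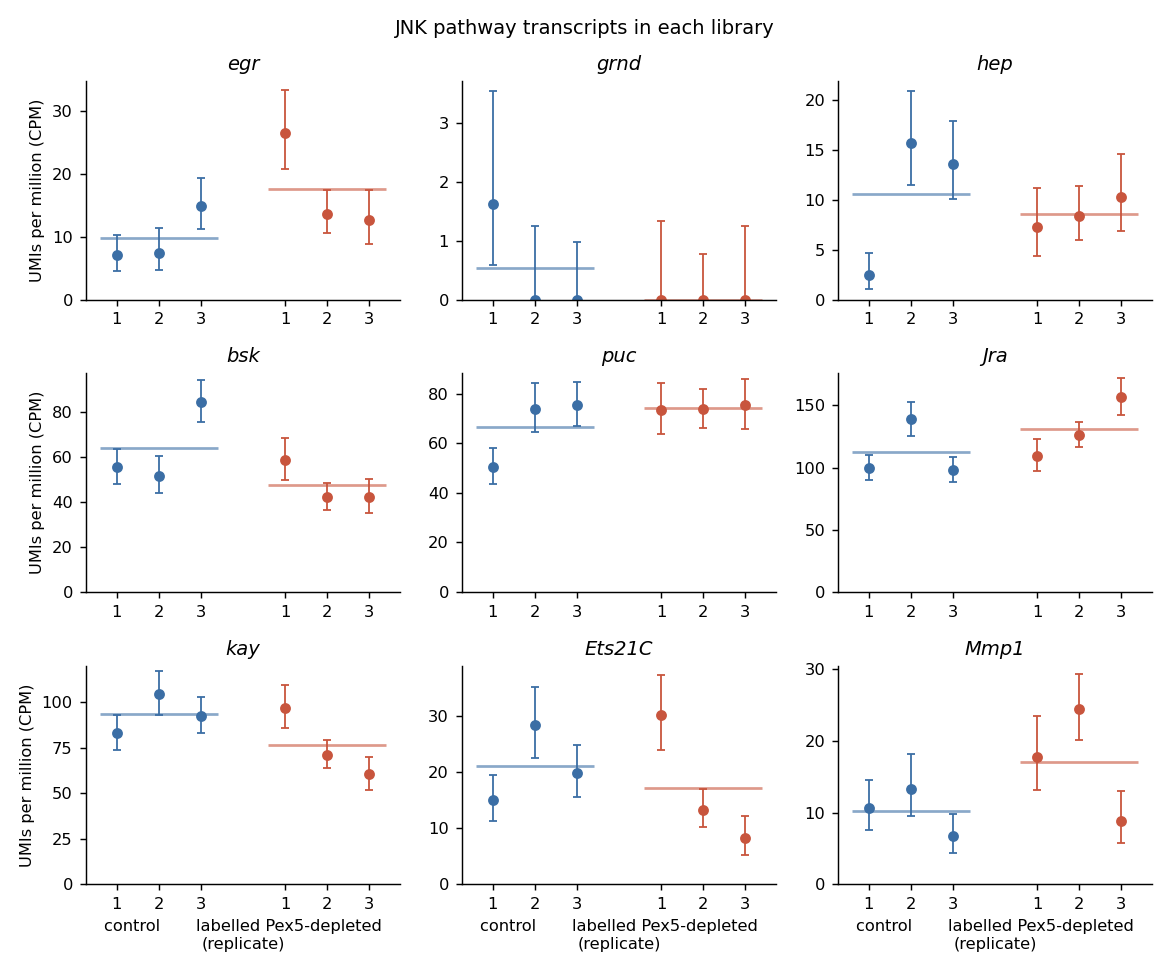
Level (CPM, vertical axis, from 0) of each JNK pathway gene in the 3 control libraries (blue) and the 3 labelled Pex5-depleted (red); bars are exact 95% Poisson intervals for counting error and lines are group means. The groups overlap in every panel, puc lies between 73.7 and 75.6 CPM in 5 of 6 libraries, and grnd has UMIs in control replicate 1 alone.

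At the top of the pathway, the ligand transcript egr (FBgn0033483, dm6 chromosome 2R, 10078366 to 10084210, plus strand, 8 exons) was counted 26, 22 and 56 times in the controls and 73, 65 and 37 times in those labelled Pex5-depleted. Scaled to depth this was 7.06, 7.51 and 15.0 CPM against 26.5, 13.7 and 12.6 CPM. Control replicate 3 thus lay above 2 of the 3 libraries labelled Pex5-depleted, and replicate 1 labelled Pex5-depleted stood highest. The means were 9.84 ± 4.44 and 17.6 ± 7.72 CPM (n = 3 each, SD), a difference of 0.83 on the log2 scale with an SE of 0.47 and a 95% interval from -0.18 to 1.83 (edgeR, adjusted p = 0.498). It was the smallest p of the 8. Without control replicate 3 the log2 fold change was 1.26 (edgeR, adjusted p = 0.350). Without replicate 1 labelled Pex5-depleted it was 0.41, so the value depended on single libraries. In bulk RNA of sorted cells, a change in the share of cells that make egr and a change in the RNA per cell cannot be told apart.

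The receptor transcript grnd (FBgn0032682, chromosome 2L, 18485417 to 18488021, plus strand) had 6 UMIs in control replicate 1 and 0 in each of the other 5 libraries. At these depths a count of 0 allows up to 3 UMIs, which is 0.626 to 1.17 CPM before scaling for composition, so grnd was above this limit in control replicate 1 alone. No fold is given, since its UMIs came from a single library. Both annotated 3' ends of grnd lie within 311 bases, and its 3' end overlaps kon on the opposite strand, which itself had 0 to 6 UMIs. The other Eiger receptor gene, wgn, had 1 UMI in control replicate 1 and 0 elsewhere. Ligand transcripts were thus counted in every library, and those of both receptors in control replicate 1 alone.

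Of the kinases, the JNK kinase gene hep (FBgn0010303, chromosome X, 13079205 to 13090434, minus strand) had 9, 46 and 51 UMIs in the controls, against 20, 40 and 30 in the other group, or 2.44, 15.7 and 13.6 CPM against 7.26, 8.40 and 10.3 CPM. Control replicate 1 was lowest of all 6 and the other 2 controls were highest. Its exact 95% Poisson interval, 1.12 to 4.64 CPM, does not reach those of control replicates 2 and 3, which begin at 11.5 and 10.1 CPM. The group means of 10.6 ± 7.13 and 8.64 ± 1.51 CPM (SD, n = 3 each) gave a difference of -0.29 on the log2 scale with an SE of 0.60 and a 95% interval from -1.57 to 1.00 (edgeR, adjusted p = 0.890). Without control replicate 1 it was -0.77 and without control replicate 2 it was 0.08. The 7 annotated hep transcripts end at 3 different sites spread over 3603 bases, and the 3' tags of all of them are summed in these counts.

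The JNK gene bsk (FBgn0000229, chromosome 2L, 10247502 to 10250501, minus strand) was counted more often, with 205, 152 and 317 UMIs in the controls, against 162, 201 and 124 in those labelled Pex5-depleted. This was 55.7, 51.9 and 84.7 CPM against 58.8, 42.2 and 42.4 CPM, with control replicate 3 highest and the remaining controls overlapping the other group. The means were 64.1 ± 17.9 and 47.8 ± 9.52 CPM (n = 3 each, SD). The log2 fold change came to -0.43, with an SE of 0.26 and a 95% interval from -0.99 to 0.14 (edgeR, adjusted p = 0.546), and it was -0.18 without control replicate 3 and -0.60 without replicate 1 labelled Pex5-depleted. All 3 annotated bsk transcripts share a single 3' end and no annotated gene overlaps it, so its tags come from a single site.

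The phosphatase gene puc (FBgn0243512, chromosome 3R, 8105332 to 8122294, plus strand), whose transcript is widely read as a reporter of JNK activity in the fly, had 186, 217 and 283 UMIs in the controls, against 203, 352 and 221 in the other group. After scaling, 5 of the 6 libraries lay between 73.7 and 75.6 CPM: 74.0 and 75.6 CPM in control replicates 2 and 3, and 73.7, 73.9 and 75.5 CPM in those labelled Pex5-depleted. Control replicate 1 alone was lower, at 50.5 CPM. This library also had the lowest heat shock share, 1.77%, and the lowest hep level. In the other 5 libraries the heat shock share ran from 2.66% to 4.45% at nearly equal puc levels, and a link was not tested. The log2 fold change of puc came to 0.16, with an SE of 0.23 and a 95% interval from -0.33 to 0.64 (edgeR, adjusted p = 0.829), and without control replicate 1 it was -0.02. In fold terms the interval ran from 0.797 to 1.56, so neither a doubling nor a halving of puc lies within it. The long noncoding RNA gene lncRNA:CR44331 lies within puc on the opposite strand, away from its 3' end, with 5 to 29 UMIs a library.

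The 3 tested genes whose log2 CPM profile came closest to that of puc over the 6 libraries were Lrch, Ubc2 and parvin, with root mean square differences of 0.08 each on the log2 scale. Each was lowest in control replicate 1, at 22.8, 21.4 and 13.3 CPM. They were picked for likeness to puc, which is lowest there too, so this follows from the choice. In the other 5 libraries Lrch lay between 31.0 and 35.9 CPM, Ubc2 between 31.7 and 37.0 CPM and parvin between 17.9 and 21.5 CPM.

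Both AP-1 subunits were among the more abundant genes of the set. Jra, the fly Jun (FBgn0001291, chromosome 2R, 10096480 to 10098556, plus strand), had 367, 407 and 367 UMIs in the controls, against 302, 602 and 458 in the other group, or 99.6, 139 and 98.0 CPM against 110, 126 and 157 CPM. Control replicate 2 lay above 2 of those labelled Pex5-depleted. The log2 fold change came to 0.22, with an SE of 0.21 and a 95% interval from -0.23 to 0.68 (edgeR, adjusted p = 0.717), and it was 0.38 without control replicate 2 and 0.053 without replicate 3 labelled Pex5-depleted. The last bases of Jra overlap RpLP0-like on the opposite strand, which had 109 to 213 UMIs a library. The sources do not say whether counting used strand, and without strand such reads cannot be assigned to one gene.

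kay, the fly Fos (FBgn0001297, chromosome 3R, 29765995 to 29794113, plus strand), had 305, 306 and 346 UMIs in the controls, against 267, 339 and 177 in those labelled Pex5-depleted. This was 82.8, 104 and 92.4 CPM against 96.9, 71.2 and 60.5 CPM, and replicate 1 labelled Pex5-depleted lay within the range of the controls while the remaining pair lay below it. The log2 fold change came to -0.29, with an SE of 0.23 and a 95% interval from -0.78 to 0.20 (edgeR, adjusted p = 0.652), and without replicate 1 labelled Pex5-depleted it was -0.50, against -0.17 without replicate 3 of that group. Its 5 annotated transcripts share a single 3' end.

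The proportion of the AP-1 subunits does not depend on how libraries are scaled. There were 83.1, 75.2 and 94.3 kay UMIs per 100 Jra UMIs in the controls, and 88.4, 56.3 and 38.6 in those labelled Pex5-depleted. Replicate 1 labelled Pex5-depleted lay within the range of the controls and the other pair below it. The means were 84.2 ± 9.59 and 61.1 ± 25.2 (SD, n = 3 each). A two-sided exact permutation test on the log ratio gave p = 0.3, where 3 libraries against 3 cannot go below 0.1. This was 1 of 3 ratios between member genes that were computed and tested in the same way, all chosen after the counts were seen. For the phosphatase and its kinase, there were 90.7, 143 and 89.3 puc UMIs per 100 bsk UMIs in the controls, and 125, 175 and 178 in those labelled Pex5-depleted. Control replicate 2 lay above replicate 1 labelled Pex5-depleted, so the groups overlapped, and the exact permutation p was 0.2. For the outputs, there were 70.9, 47.0 and 33.8 Mmp1 UMIs per 100 Ets21C UMIs in the controls, and 59.0, 184 and 108 in those labelled Pex5-depleted. Control replicate 1 lay above replicate 1 labelled Pex5-depleted, and the exact permutation p was again 0.2. Adjusted by Benjamini-Hochberg over the 3 ratios, each p was 0.3, and none passed the threshold, which this design cannot reach for a single ratio.

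Of the AP-1 outputs, Ets21C (FBgn0005660, chromosome 2L, 544925 to 552923, minus strand) encodes an ETS transcription factor that in the midgut acts in stem cell division after stress. It had 55, 83 and 74 UMIs in the controls, against 83, 63 and 24 in the other group, or 14.9, 28.3 and 19.8 CPM against 30.1, 13.2 and 8.20 CPM. The group labelled Pex5-depleted held both the highest and the lowest library. The log2 fold change came to -0.29, with an SE of 0.46 and a 95% interval from -1.27 to 0.69 (edgeR, adjusted p = 0.847), -0.95 without replicate 1 labelled Pex5-depleted and 0.01 without replicate 3 of that group. The 4 annotated Ets21C transcripts end at 2 sites 2091 bases apart. On the opposite strand nAChRbeta3 lies within the gene, with 0 to 18 UMIs a library. Mmp1 (FBgn0035049, chromosome 2R, 24671294 to 24688184, minus strand), which encodes a secreted protease that cuts extracellular matrix, had 39, 39 and 25 UMIs in the controls, against 49, 116 and 26 in the other group. This was 10.6, 13.3 and 6.68 CPM against 17.8, 24.4 and 8.89 CPM, with replicate 3 labelled Pex5-depleted inside the range of the controls and the other pair above it. The log2 fold change of Mmp1 came to 0.75, with an SE of 0.47 and a 95% interval from -0.25 to 1.76 (edgeR, adjusted p = 0.551). It was 0.39 without replicate 2 labelled Pex5-depleted and 1.03 without replicate 3 labelled Pex5-depleted. Its 10 annotated transcripts end at 2 sites 3382 bases apart, and its 3' end overlaps Pof on the opposite strand, which had 6 to 16 UMIs a library.

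**Figure D2:**
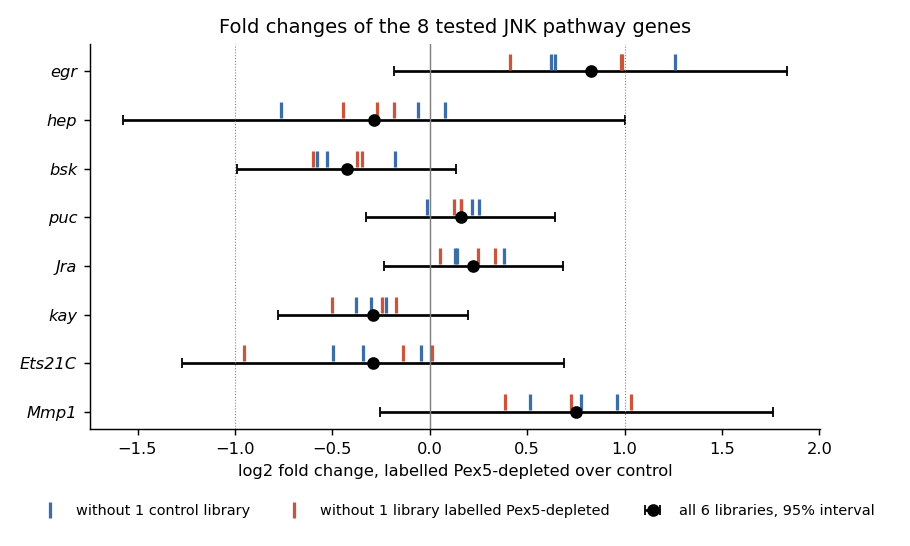
Log2 fold change (horizontal axis, libraries labelled Pex5-depleted over control) of the 8 tested genes; black points and bars give edgeR's estimate and 95% interval with all 6 libraries, and coloured ticks the estimate without 1 library. Every black interval spans 0, and dotted lines at -1 and 1 mark a halving and a doubling, which lie outside the intervals of bsk, puc, Jra and kay.

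The size of change that these data allow differed between the genes. With all 6 libraries, the 95% intervals of Jra, kay, puc and bsk lay wholly between a halving and a doubling. This held for Jra and puc in all 12 edgeR fits, of which 11 were alternatives, for kay in 11 and for bsk in 4 of them. The exception for kay was the fit without replicate 1 labelled Pex5-depleted. The intervals of egr, hep and Mmp1 reached past a doubling or a halving in each of the 12 fits and that of Ets21C in 11, so these data allow a change of that size in at least 1 direction. For Ets21C the interval with all 6 libraries held a halving but not a doubling.

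Among the controls, levels by 3' tag count, which need no division by transcript length because the kit reads 1 tag near the 3' end of a molecule, fell into tiers. Jra and kay came first, at 112 ± 23.1 and 93.2 ± 10.8 CPM, followed by puc and bsk at 66.7 ± 14.1 and 64.1 ± 17.9 CPM. Ets21C, hep, Mmp1 and egr followed at 21.0, 10.6, 10.2 and 9.84 CPM, and grnd came last (SD, n = 3 each). In this order each gene overlapped the next between control libraries, except kay and puc, bsk and Ets21C, and egr and grnd. The first 2 tiers still touched, since the lowest control value of kay, 82.8 CPM, lay below the highest of bsk, 84.7 CPM. Averaged over all 6 libraries, Jra was above 90.0% of the tested genes, kay above 86.7%, puc above 84.3% and bsk above 81.4%, whereas egr and Mmp1 sat near the middle, above 49.8% and 49.6%, and hep was above 38.9%.

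The spread between replicates of a group, as the SD of log2 CPM, was 0.23 for puc, 0.27 for kay, 0.27 for Jra and 0.33 for bsk. It was 0.57 for egr, 0.61 for Mmp1, 0.72 for Ets21C and 0.97 for hep, where the median over all tested genes was 0.48. Low genes vary more for counting reasons alone, and set against the 500 tested genes nearest in level, Ets21C exceeded 87.2% of them and hep 85.2%, while puc exceeded 27.8%. For hep the spread came from control replicate 1, and for Ets21C from the range of 30.1 to 8.20 CPM within the group labelled Pex5-depleted.

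**Figure D3:**
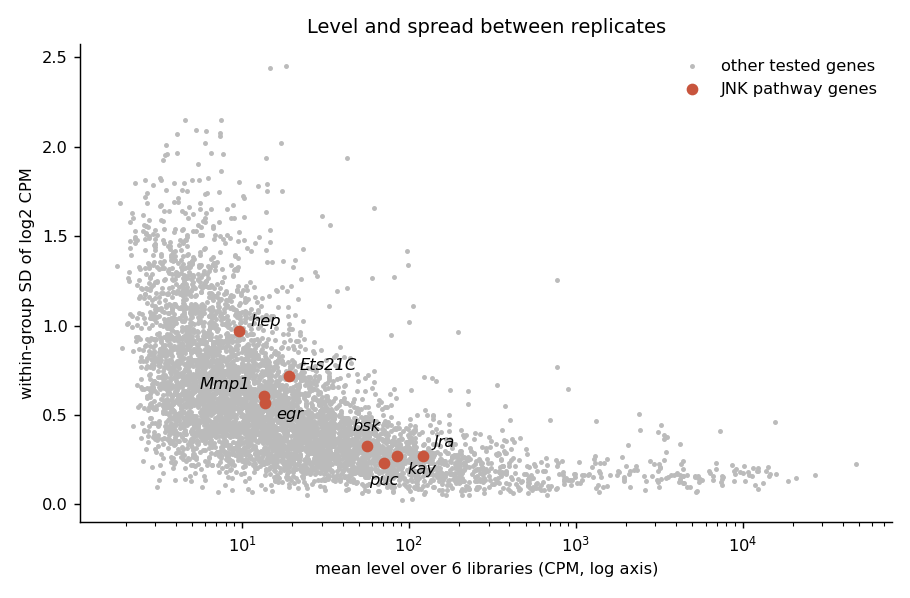
Mean level over 6 libraries (horizontal axis, CPM, log scale) against the within-group SD of log2 CPM (vertical axis) for all tested genes (grey) and the 8 tested JNK pathway genes (red). Ets21C (0.72) and hep (0.97) lie in the upper part of the cloud at their level and puc (0.23) in the lower part.

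Other genes that feed the cascade gave 0 calls. Of 19 adaptors and upstream kinases, all in the table, 11 were tested and 0 passed with edgeR. At its unadjusted p under 0.05 stood 0 of the 11, against 13.2% of all tested genes. Of the fold changes 6 were positive and 5 negative, with the median at 0.10 on the log2 scale. The smallest p values belonged to the GTPase gene Cdc42 (29.6 ± 12.1 against 40.3 ± 1.89 CPM, log2 fold change 0.44), the Src kinase genes Src64B and Src42A (-0.97 and -0.76), and slpr, a mixed lineage kinase that phosphorylates Hemipterous (6.25 ± 2.37 against 9.93 ± 1.96 CPM, 0.68; SD, n = 3 each). Their adjusted p lay between 0.617 and 0.658 by edgeR. The 8 that were not tested were wgn, Traf4, Traf6, wnd, Ask1, Mekk1, POSH and cno, with 0 to 16 UMIs in any library.

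Genes that dampen JNK or related kinases, or antagonise its output, also gave 0 calls. Of 12, 8 were tested and 0 passed with edgeR, with a median log2 fold change of 0.09. At its unadjusted p under 0.05 stood 0 of the 8, against 13.2% of all tested genes. The scaffold subunit gene of protein phosphatase 2A, Pp2A-29B, stood at 77.8 ± 7.78 against 106 ± 27.8 CPM (log2 fold change 0.44, SE 0.23). Its catalytic subunit gene mts had a log2 fold change of -0.28. scyl, which encodes an inhibitor of TOR signalling, stood at 103 ± 23.0 against 137 ± 22.0 CPM (0.41, SE 0.22), and the zinc finger gene peb had 0.34 (SD, n = 3 each; adjusted p 0.430 to 0.717 by edgeR). The deubiquitinase gene CYLD, Mkp, MKP-4 and rib were not tested, with 0 to 33 UMIs in any library.

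Genes linked to JNK as outputs in other fly tissues gave 0 calls with edgeR. Of 28 listed, 27 were in the table and 17 were tested. In that test 2 higher and 2 lower were at an unadjusted p under 0.05, as were 13.2% of all tested genes. The median log2 fold change of the 17 was 0.08. The inducible chaperone gene Hsp68, which is equally a heat shock gene, stood at 166, 405 and 715 CPM in the controls, against 924, 1232 and 1167 CPM in those labelled Pex5-depleted. These groups did not overlap, as for 19.2% of all tested genes, and the log2 fold change was 1.37 (SE 0.34; edgeR, adjusted p = 0.0645). It passed with limma-voom (0.0114), with the replicate block (0.00996), with no count filter (1.10e-11) and in the fit lacking control replicate 3 (0.0138), and not in the other 9 alternatives, DESeq2 among them (up to 0.202). The profilin gene chic, which promotes actin assembly, stood at 2442 ± 177 against 1770 ± 114 CPM (a log2 difference of -0.46 with SE 0.14; adjusted p = 0.124; SD, n = 3 each), and it passed with DESeq2 (0.0169) and without a count filter (0.0210). The ferritin gene Fer1HCH had a log2 fold change of -0.41 (adjusted p = 0.315) and the Hippo pathway adaptor gene jub had 1.79 on 6 to 70 UMIs a library (0.317), or 0.98 without replicate 2 labelled Pex5-depleted, which held the 70.

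Outputs most often followed in the midgut gave the following values, named after they were seen. The cytokine gene upd3, a ligand of JAK-STAT signalling induced by gut damage, stood at 18.7, 21.2 and 14.2 CPM in the controls, against 24.3, 22.3 and 19.8 CPM in the other group (a log2 difference of 0.30 with SE 0.34; adjusted p = 0.769 by edgeR). Its relative upd2 stood at 8.69, 23.2 and 17.1 against 37.4, 39.3 and 14.7 CPM (0.91, SE 0.43, adjusted p = 0.388). The group labelled Pex5-depleted had the highest upd2 levels in replicates 1 and 2, while its replicate 3 lay within the range of the controls, as it did for Mmp1. The stress genes Gadd45, GstD1 and Thor had log2 fold changes of 0.14, 0.08 and 0.11 on 507 or more UMIs in every library. The 10 that were not tested, upd1, Ilp8, Mmp2, Pvf1, Pvf3, rpr, hid, scaf, dpp and mol, had 0 to 22 UMIs in any library.

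Families related to AP-1 and Ets21C gave no call either. Of 17 other bZIP factor genes 13 were tested and 0 passed with edgeR, with a median log2 fold change of 0.26. At its unadjusted p under 0.05 stood 2 higher and 0 lower, against 13.2% of all tested genes. Pdp1, a circadian factor, stood at 52.9 ± 7.16 against 78.2 ± 13.3 CPM (a log2 difference of 0.56 with SE 0.23; adjusted p = 0.307), and maf-S, the partner of the antioxidant factor Cnc, at 52.0 ± 20.1 against 84.5 ± 32.2 CPM (0.70, SE 0.32, adjusted p = 0.357; SD, n = 3 each). The stress factor genes Xbp1 and crc, the fly ATF4, had 0.33 and -0.25. Of 8 other ETS genes 5 were tested and 0 passed, with a median of -0.15. At an unadjusted p under 0.05 with edgeR stood 0 of these 5, against 13.2% of all tested genes. Of these, aop, a repressor, had -0.68, Eip74EF, induced by ecdysone, -0.52, edl, which antagonises other ETS proteins, -0.15 and pnt, an activator downstream of EGFR, 0.18.

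The parallel p38 and ERK cascades had 14 of 15 genes in the table, and of 10 tested 0 passed with edgeR. At its unadjusted p under 0.05 stood 0 as well, against 13.2% of all tested genes. Of the 10, 7 had a value below 0, and the median log2 fold change was -0.42. Ras85D, the GTPase above ERK, stood at 56.9 ± 13.1 against 38.1 ± 14.7 CPM (a log2 difference of -0.58 with SE 0.30; adjusted p = 0.446). The adaptor gene drk had -0.47, the p38 kinase gene p38c -0.81 and its relative p38b 0.61 (SD, n = 3 each; adjusted p 0.480 to 0.544 by edgeR).

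Heat shock and dissociation stress genes, listed because JNK responds to heat and to handling of tissue, were the only one of these lists with calls. Of 20, 19 were in the table and 17 were tested. Of these 5 rose, 0 fell and 12 stayed short of the threshold, where 1.65% of all tested genes passed. At an unadjusted p under 0.05 with edgeR stood 13 higher and 0 lower, against 13.2% of all tested genes. The median log2 fold change was 0.93. Hsp83, the fly Hsp90, went from 973, 1162 and 998 CPM in the controls to 2028, 1997 and 2096 CPM in those labelled Pex5-depleted, and rose by 0.97 on the log2 scale (edgeR, adjusted p = 0.00382). The constitutive chaperone gene Hsc70-4 went from 1924 ± 423 to 3662 ± 130 CPM, or 0.93 higher on the log2 scale with an SE of 0.16. The heat-inducible Hsp70Ab, Hsp70Aa and Hsp70Bc rose by 1.62, 1.69 and 1.34 on the log2 scale, and as near-identical copies their separate values are uncertain. Hsp27, Hsp68, Droj2 and stv, chaperone genes or their helpers, had log2 fold changes of 1.00, 1.37, 0.82 and 1.11 without passing (SD, n = 3 each; adjusted p 0.0504 to 0.0825 by edgeR). In these same libraries the 8 tested JNK pathway genes ran from -0.43 for bsk to 0.83 for egr on that scale, with Mmp1 at 0.75, Jra at 0.22, puc at 0.16 and kay at -0.29, none past the threshold. Of the 5 calls, that of Hsp83 held in all 13 alternatives, and those of Hsc70-4, Hsp70Ab, Hsp70Aa and Hsp70Bc in 11, 11, 10 and 7. Short of the threshold in the main fit, Hsp27, Hsp68, Droj2 and stv passed in 6, 4, 1 and 2 of the alternatives.

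**Figure D4:**
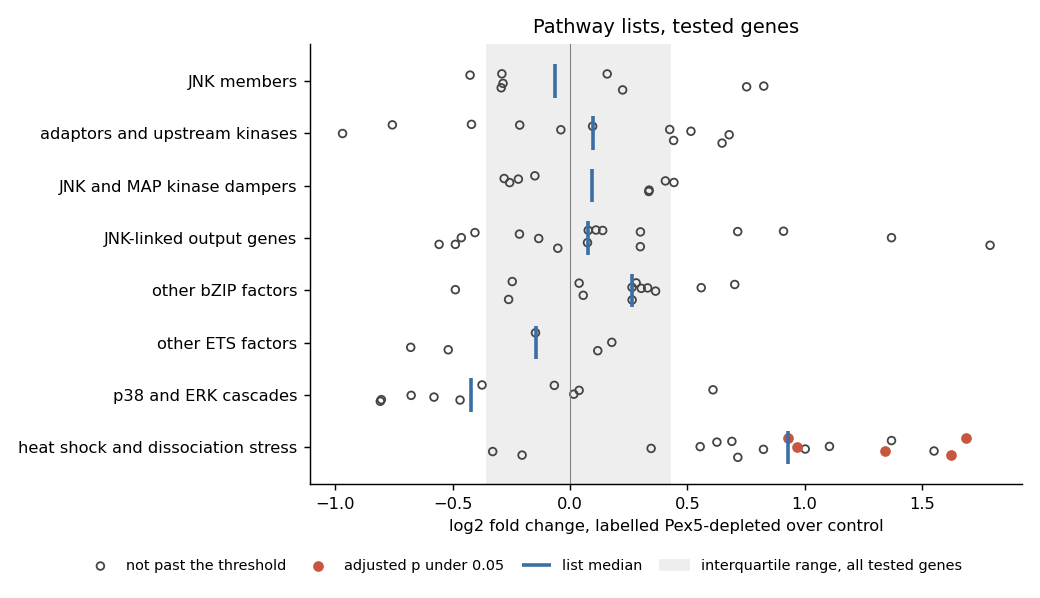
Log2 fold change (horizontal axis, libraries labelled Pex5-depleted over control) of the tested genes of each list (rows), with list medians as blue lines and the interquartile range of all tested genes in grey; filled red points passed at an adjusted p under 0.05. The 5 red points all lie in the heat shock list (median 0.93), and the JNK pathway genes have a median of -0.06.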

How the data were processed

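The authors deposited UMI counts per gene and well index from a QIAseq UPX 3' poly-A library. HISAT2, StringTie, DESeq2 and build dm6 are named, without roles, per the submitters' processing notes; the counting step and its use of strand are not given in the sources used here. Columns were tied to samples by the library names in the labels, and 29 columns of other well indexes, which hold 0 UMIs of the genes described, were not used. The 6 spike-in rows (3.37e-05% of UMIs) were left out. The deposited run metrics gave counts of reads and UMIs per library.

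The 9 genes and all lists were chosen with earlier results of these data known. edgeR 4.0.16 (R 4.3.3) was fitted on the deposited counts of all genes with TMM factors, its filter at a minimum count of 10, and no covariate; p-values are two-sided and adjusted over 5639 tested genes at a threshold of 0.05. CPM are UMIs scaled by library total and TMM factor; log2 CPM used a prior count of 2. An SE is the log2 fold change divided by the square root of F. Intervals and floors (3 counts) cover counting error only where called Poisson. The fit was tested on simulated data. Alternatives were RLE or no factors, no filter, 10 UMIs in 3 libraries, DESeq2 1.42.0, limma-voom 3.58.1, a replicate block and each library left out. Named besides the 9 genes were list members past the threshold, the 4 others of smallest p per list and the 3 genes nearest puc; exceptions are marked. List names Hsp67Bb, A3-3 and MK2 matched no symbol. Counts of replicate pairs differed by more than sampling alone gives (reduced chi-square 10.3 to 16.3). Gene positions equal those of Ensembl release 115 (BDGP6), which gave transcripts, exons and overlaps. The authors' deposited table of signed fold scores with p-values names no sides and entered no test.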

Additional observations from a re-analysis of the deposited data

How the results depend on the processing

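No JNK pathway gene passed in any of the 13 alternatives, and with every library and setting tried their adjusted p stayed between 0.350 and 0.996. Signs turned for hep with limma-voom (0.13) and without control replicate 2 (0.080), its fits without 1 library running from -0.77 to 0.080, for puc without control replicate 1 (-0.015 to 0.25) and for Ets21C without replicate 3 labelled Pex5-depleted (-0.95 to 0.011). Among other genes they turned for aop (-1.02 to 0.00031 without 1 library), edl (-0.78 to 0.33) and pnt (-0.090 with limma-voom, -0.64 to 0.46 without 1 library). The 93 calls over all genes became 197 without a count filter, 208 with DESeq2 and 17 to 80 without 1 library. The 5 calls in the other pathway lists became 12, 9 and 1 to 6. Fits without 1 library also hold fewer samples, and the cause of these shifts was not tested. In fits without 1 library egr and Mmp1 each reached an unadjusted p under 0.05 once, the former without control replicate 3, the latter lacking replicate 3 labelled Pex5-depleted. At 0 to 116 UMIs a library, hep, egr, Mmp1, Ets21C and grnd rest on few counts, and single libraries moved the values of hep, egr, Mmp1 and Ets21C.

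With the replicate number as a block 58 genes passed in all and 8 in the other pathway lists. Deviations of same-numbered libraries correlated at -0.014, -0.052 and 0.012. With 3 libraries a group, such values cannot decide whether the numbers pair the libraries, and the labels do not say. In the fits lacking 1 library, the call of Hsc70-4 ended without control replicate 1 or replicate 2 labelled Pex5-depleted, that of Hsp70Ab without replicates 2 or 3 of that group, Hsp70Aa without any of these 3, and Hsp70Bc without any library but control replicate 3, with adjusted p up to 0.0531, 0.0665, 0.0783 and 0.168 by edgeR.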

Other observations

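The authors' deposited table of fold changes lists all 9 genes, with signed linear folds of 3.35 for egr, -2.48 for Jra, -2.81 for Mmp1, -1.92 for puc, -1.45 for bsk, 2.75 for grnd, 1.36 for hep, 1.16 for Ets21C and 1.11 for kay. In the authors' deposited table the false discovery rates run from 1.46e-39 for egr to 0.232 for kay. Ets21C stands at 0.153 there, and the remaining genes at 0.00522 (hep) or lower. The highest fold in the authors' deposited table is 53792, for nos, which had 1 UMI over the 6 libraries, and grnd had 6 UMIs in all. The table names neither side of its comparison. Set against the fold changes fitted from the counts, egr and bsk had the same sign there. Jra, Mmp1, puc, hep, Ets21C and kay had the opposite sign. Neither choice of sides thus matches the signs of all 8 tested genes, none of which passed when fitted from the counts.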
